A study of Mus musculus with 15 samples.

Results

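RNA of erythroid progenitors, the precursors of red cells, was compared between 3 low-yield mutant and 3 wildtype libraries from the mice of group 2, chosen by their titles alone. These 6 of the 15 libraries in the series hold total RNA of mouse fetal liver at stage E12.5 from strain 129S6/SvEvTac, read as 151 bp paired ends. The genotype text of the deposited sheet is "wildtype" for the first group and Rpl5plusSkax23Jus for the low-yield libraries. The same text stands for 3 other mutant libraries of group 2, so that only the undefined label "low-yield" separates those from the low-yield ones. The labels name no Cre driver, promoter or clone for the mutation. The mice of group 1, of the same strain and stage, gave 3 wildtype and 3 mutant libraries of polyA RNA. The question behind the series, by its title, is the place of lipid metabolism in Diamond Blackfan anemia, in which red cells are made in too small a number.

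The product of Rpl5 sits in the large subunit of the ribosome and also travels with 5S ribosomal RNA to Mdm2, the ligase that keeps the transcription factor p53 low. When ribosome assembly falters, that complex is known to hold Mdm2 and p53 target genes are switched on. In the fetal liver, progenitors under the control of Gata1 and Klf1 divide while they build up globin, heme enzymes and a membrane skeleton, and lose the programme of stem cells and of other blood lineages.

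Levels are given as CPM, each gene's counts relative to the TMM-scaled total of its library. A gene is said here to be called, or to have risen or fallen, where its adjusted p from edgeR's quasi-likelihood test with Benjamini-Hochberg adjustment over all 15024 tested genes was below 0.05. Each log2 fold change stands with its standard error (SE). The labels do not say whether the 3 libraries of a group came from separate embryos, so p-values measure the spread between these libraries only, which may be technical in part. By Xist and Y-linked genes each group held libraries of both sexes, so its libraries did not all come from the same source.

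The 6 libraries held between 30897179 and 44827821 counts, with 17224 to 18463 genes detected in wildtype and 18882 to 19394 in low-yield libraries. Of these, 2 libraries stood apart. Low-yield replicate 3 lay nearest to wildtype of the 3 low-yield libraries in 722 of the 1004 genes called higher and in 663 of the 880 called lower. On the first principal component (28.4% of the variance over the 9 libraries of group 2) it lay at 13.7, against 36.8 and 38.5 for the other low-yield libraries and -35.8, -52.5 and -49.2 for wildtype. Wildtype replicate 1 lay at 55.3 on the second component, where the other 5 of the compared libraries were between -20.2 and -0.59. Y-linked genes were expressed, and Xist was low, in 1 library of each group (wildtype replicate 2 and low-yield replicate 3 among those compared), and 0 of the 7 tested genes of chromosome Y were called. The defining erythroid markers were abundant in all 6 libraries: Gata1 lay between 347 and 391.5 CPM and Klf1 between 491 and 871 CPM. Unless a remark follows a called gene below, its call held in each alternative in which it was tested, the omission of each library in turn included, the replicate number as a block excepted. Genes that overlap another annotated gene, among them Rpl5, Sptb, Irgm2 and Spns2, may hold reads of their partner, since the use of strand is not given in the sources used here.

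Rpl5, the gene named in the genotype text, was lower in the low-yield libraries. It (chromosome 5, 107900502 to 107909005 on GRCm38) stood at 324, 303 and 374 CPM in wildtype and 243, 219 and 278 CPM in low-yield libraries, that is, 334 ± 36.6 and 247 ± 29.9 CPM (SD, n = 3). The groups did not overlap, and the log2 fold change was -0.44 (SE 0.10, adjusted p = 0.00870 in edgeR). The call was lost without low-yield replicate 2 (adjusted p = 0.0666).

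Of the tested genes 1884 were called, 1004 higher (6.68%) and 880 lower (5.86%) in the low-yield mutant. The median log2 fold change was 0.81 among genes called higher, -0.52 among those called lower and -0.0035 among all tested. Of the 1884 called genes, 1841 did not overlap between the groups, so a lack of overlap adds little to a call. Over all tested genes, 15.3% lay higher and 14.6% lower in the low-yield libraries without overlap. The genes called higher included many of low level: 441 of 1004 had a mean below 10 CPM, against 128 of 880 called lower. At a log2 fold change of at least 2, 215 genes were called, and at -2 or below 29; the 215 include genes that passed the filter only through libraries where they are high, so these counts are not set against each other. With low-yield replicates 1 and 2 left out in turn, the calls numbered 902 and 900, and with wildtype replicates 2 and 3 left out, 1074 and 1153. Without the libraries that stood apart there were more, 1995 when low-yield replicate 3 was left out and 2395 when wildtype replicate 1 was.

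**Figure D1:**
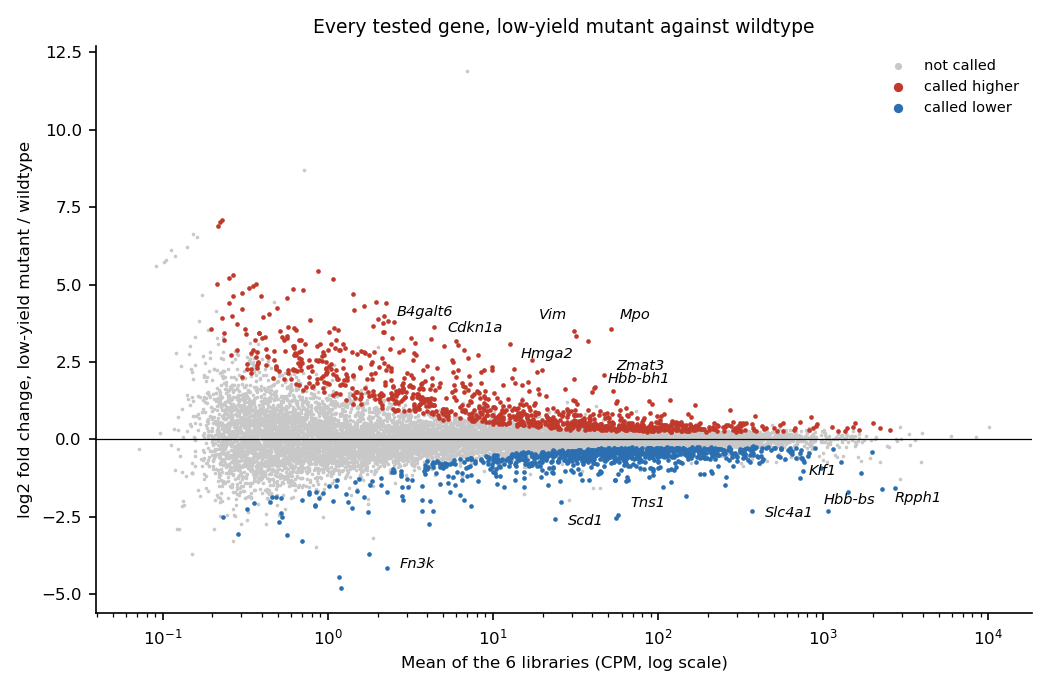
Log2 fold change of low-yield mutant against wildtype (vertical axis) against the mean level of the 6 libraries in CPM (log scale) for each of the 15024 tested genes, with the 1004 called higher in red and the 880 called lower in blue. Genes called above a log2 fold change of 2 lie mostly at low levels, and the fallen genes Hbb-bs, Slc4a1 and Klf1 at high ones.

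Genes of granulocytes, eosinophils and platelets were among the 15 largest increases, beside an enzyme of glycolipid synthesis. Of the 15, 9 were not above the filter's level of 0.303 CPM in all 3 wildtype libraries, so that they passed through libraries where they are high and a difference was built in; these were B4galt6, Gask1b, Lyz2, Ear6, Ngp, Prg3, S100a9, Ncf1 and Camp. B4galt6, which makes lactosylceramide, was at 0.316, 0.347 and 0.134 CPM in wildtype and 4.73, 4.41 and 3.23 CPM in low-yield libraries (3.99, SE 0.47, adjusted p = 0.000119). Vim, the intermediate filament vimentin, was at 7.53, 5.32 and 4.43 CPM in wildtype and 79.0, 65.4 and 30.2 CPM in low-yield libraries (3.35, SE 0.42, adjusted p = 0.00276). Only genes without overlap between groups could enter the 15 increases or the 15 decreases, so their separation is part of the choice. For Vim low-yield replicate 3 was the lowest of its group. Mpo, the peroxidase of neutrophil granules, was at 8.32, 5.52 and 10.1 CPM and 136, 74.6 and 76.8 CPM in the same order (3.56, SE 0.58, adjusted p = 0.0116), and its call was lost without wildtype replicate 2 (adjusted p = 0.0524). Others among the 15 largest increases were Gask1b, the granule or antimicrobial genes Lyz2, Ear6, Ngp, S100a9 and Camp, the oxidase subunit Ncf1 and the mucin-like gene Parm1, with log2 fold changes from 3.17 to 3.89. The eosinophil genes Epx (3.50, SE 0.64, adjusted p = 0.0180), Prg2 (3.17, SE 0.64, adjusted p = 0.0246) and Prg3 (3.64, SE 0.74, adjusted p = 0.0140) were called too. Epx was lost without wildtype replicate 2 or wildtype replicate 3 (adjusted p = 0.0585 to 0.0755) and in a fit of the 6 compared libraries alone. Prg2 was lost without low-yield replicate 2, other-mutant replicate 3, wildtype replicate 2 or wildtype replicate 3 (adjusted p = 0.0513 to 0.0938) and in a fit of the 6 compared libraries alone, and Prg3 without wildtype replicate 2 or wildtype replicate 3 (adjusted p = 0.0518 to 0.0681) and with no filter on low counts or in limma voom. The platelet integrin Itgb3 (3.27, SE 0.70, adjusted p = 0.0144) was lost without wildtype replicate 1, wildtype replicate 2 or wildtype replicate 3 (adjusted p = 0.0634 to 0.0697) and with no filter on low counts or in limma voom.

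The 15 largest decreases included Hbb-bt, Hba-a2, Slc4a1 and Scd1, described with their lists. Fn3k, which repairs glycated proteins and is abundant in red cells, was at 2.53, 4.85 and 5.57 CPM in wildtype and 0.160, 0.122 and 0.407 CPM in low-yield libraries (-4.15, SE 0.48, adjusted p = 8.78e-05). Tns1, a protein of focal adhesions, was at 85.4, 99.8 and 105 CPM and 10.9, 14.1 and 27.4 CPM (-2.45, SE 0.30, adjusted p = 0.00195). In both genes low-yield replicate 3 was the highest of the 3 low-yield libraries. Slc26a1, a sulfate transporter, stood at 237, 238 and 217 CPM in wildtype and 60.7, 50.8 and 83.7 CPM in low-yield libraries (-1.82, SE 0.16, adjusted p = 5.61e-05). Stard10, a lipid transfer protein, was at 40.2, 41.7 and 42.3 CPM and 8.73, 6.27 and 15 CPM (-2.02, SE 0.24, adjusted p = 0.000460). The wildtype values of these 2 genes lay close together. Ypel4, Il1rl1 (the receptor of interleukin 33), the interferon-induced GTPase Irgm2, the connexin Gjb2, Gfap, Fam214b and Btnl10 were also among the 15, with log2 fold changes between -2.74 and -1.96.

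**Figure D2:**
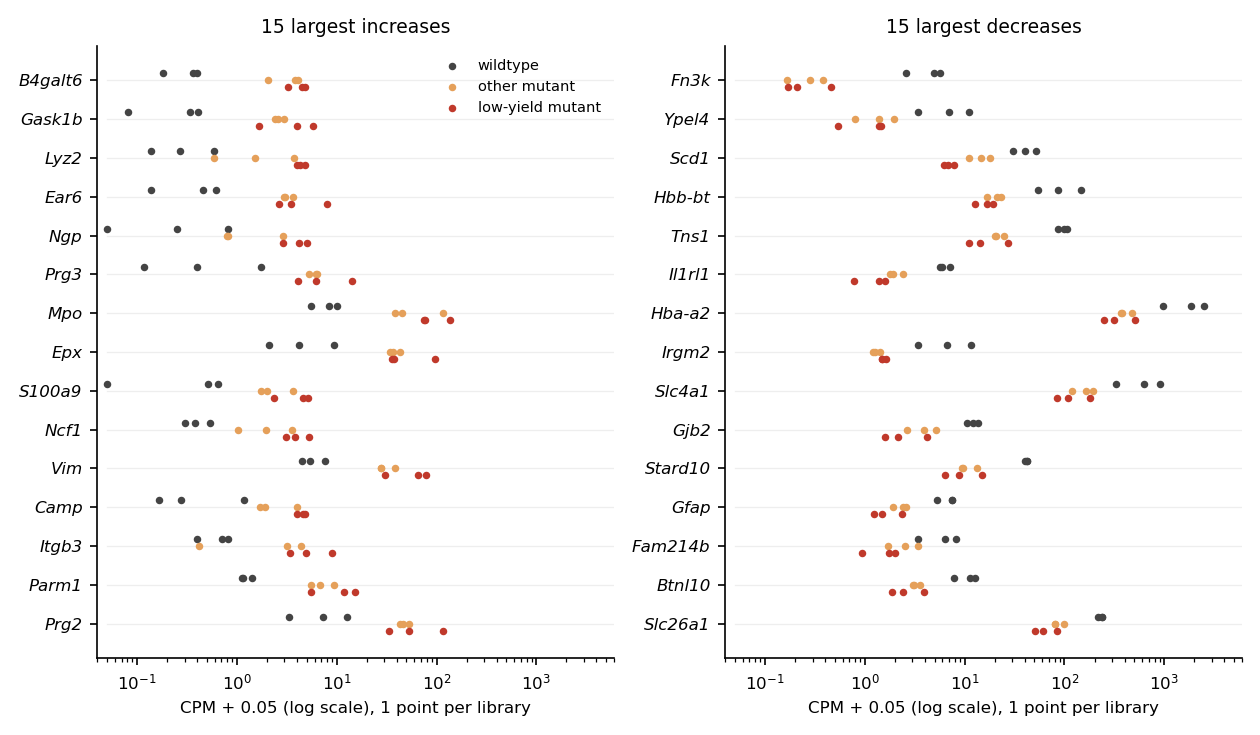
Level in each group 2 library (1 point per library, CPM + 0.05 on a log scale) of the 15 genes with the largest increases and the 15 with the largest decreases among called genes with a mean of at least 2 CPM and no overlap; wildtype black, other mutant orange, low-yield mutant red. The other mutant libraries, which share the wildtype controls, lie on the low-yield side of wildtype in most of these genes, and some libraries of Lyz2, Ngp and Itgb3 lie at or near the wildtype values.

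Adult globin genes fell and 1 embryonic one rose. Of 8 tested globin genes, with their chaperone counted, the 4 adult alpha and beta globins fell and 1 embryonic beta-like globin rose, with a list median of -1.20. Over all tested genes 5.86% fell and 6.68% rose. Hbb-bs, an adult beta globin, was at 2742, 4185 and 5233 CPM in wildtype and 1354, 1128 and 1637 CPM in low-yield libraries (-1.56, SE 0.25, adjusted p = 0.00713). Hbb-bt, its neighbour in the cluster on chromosome 7, was at 54.4, 85.8 and 146 CPM and 16.9, 12.8 and 19.2 CPM (-2.55, SE 0.38, adjusted p = 0.00681). Both were highest in wildtype replicate 3 and lowest in low-yield replicate 2. Hbb-bh1, an embryonic globin of the same cluster (chromosome 7, 103841637 to 103843164), went the other way, from 17.8, 23.7 and 17.9 CPM to 58.5, 52.6 and 79.1 CPM (1.68, SE 0.18, adjusted p = 0.000193). All 3 low-yield libraries were above all 3 wildtype libraries, low-yield replicate 3 furthest.

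The alpha globins fell with less certainty. Hba-a1 was at 1112, 2281 and 3093 CPM in wildtype and 597, 506 and 874 CPM in low-yield libraries (-1.71, SE 0.40, adjusted p = 0.0412), and Hba-a2 at 966, 1850.2 and 2522 CPM and 314, 251 and 506 CPM (-2.32, SE 0.42, adjusted p = 0.0181). Wildtype replicate 1 was the nearest to the low-yield values in both, which are near-identical copies between which reads may have been split. Hba-a1 was lost without low-yield replicate 1, low-yield replicate 2, other-mutant replicate 1, other-mutant replicate 2, other-mutant replicate 3, wildtype replicate 2 or wildtype replicate 3 (adjusted p = 0.0676 to 0.152) and with no filter on low counts or in a fit of the 6 compared libraries alone. Hba-a2 was lost without low-yield replicate 1, low-yield replicate 2 or wildtype replicate 2 (adjusted p = 0.0575 to 0.0867) and in a fit of the 6 compared libraries alone. With these, the number of globins called lower was 2 without low-yield replicate 1, low-yield replicate 2 or wildtype replicate 2. Members of the list called lower numbered 5 without low-yield replicate 3 or wildtype replicate 1. The other embryonic globins, chosen after their values were seen, did not pass: Hbb-y was at 144, 231 and 189 CPM and 114, 107 and 332 CPM (-0.03, SE 0.47, adjusted p = 0.981) and Hba-x at 111, 179 and 132 CPM and 142, 138 and 309 CPM (0.48, SE 0.38, adjusted p = 0.494). Low-yield replicate 3 alone was above all wildtype libraries in both of these genes. For Hbb-y the other low-yield libraries, at 114 and 107 CPM, were below all wildtype ones, so its value rests on that library. Globin genes took 0.494%, 0.876% and 1.13% of the counts in wildtype and 0.263%, 0.223% and 0.379% in low-yield libraries.

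Heme enzymes fell at several steps. Of 17 tested genes of heme synthesis and its mitochondrial transport, 11 fell and 1 rose, with a median of -0.50. Over all tested genes 5.86% fell and 6.68% rose, so the share of rises is near the background. Ppox, which makes protoporphyrin, was at 108, 118 and 123 CPM in wildtype and 56.7, 59.2 and 68.5 CPM in low-yield libraries (-0.92, SE 0.09, adjusted p = 3.76e-05). Fech, which inserts the iron, was at 389.8, 473 and 488 CPM and 255, 245 and 322 CPM (-0.72, SE 0.11, adjusted p = 0.000756). Neither gene overlapped between groups. Uros (-1.07, SE 0.19, adjusted p = 0.00480) and the mitochondrial transporter Abcb10 (-0.87, SE 0.13, adjusted p = 0.00144) fell as well, and so did Cpox (-0.40, SE 0.09, adjusted p = 0.00797), which was lost without low-yield replicate 1 (adjusted p = 0.0730). The gene that rose was Alas1, the housekeeping form of the first enzyme, named after its values were seen (0.63, SE 0.19, adjusted p = 0.0459); it was lost without low-yield replicate 1, low-yield replicate 2, other-mutant replicate 2, other-mutant replicate 3, wildtype replicate 2 or wildtype replicate 3 (adjusted p = 0.0597 to 0.192) and with no filter on low counts, in a fit of the 6 compared libraries alone or in edgeR's legacy mode. Its erythroid form Alas2, likewise chosen, was at 33.7, 64.2 and 102 CPM and 18.9, 18.7 and 29.4 CPM and just missed the threshold (-1.58, SE 0.41, adjusted p = 0.0524). Members called lower numbered 5 and 6 when low-yield replicates 1 and 2 were left out in turn, and 7 when wildtype replicate 2 was.

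Of 22 tested genes of iron uptake, storage and heme export, 6 fell and 0 rose (median -0.24), against a background of 5.86% that fell. Blvrb, biliverdin reductase B, was at 367, 366 and 358 CPM in wildtype and 191, 178 and 236 CPM in low-yield libraries (-0.85, SE 0.09, adjusted p = 7.08e-05). The wildtype values lay within a few CPM of each other and above all low-yield ones. Slc25a37, the mitochondrial iron importer mitoferrin, was at 233, 364 and 481 CPM and 139.7, 138 and 182 CPM (-1.23, SE 0.26, adjusted p = 0.0206), and was lost without low-yield replicate 1, low-yield replicate 2 or wildtype replicate 2 (adjusted p = 0.0647 to 0.0882) and with no filter on low counts or in a fit of the 6 compared libraries alone. Fallen members numbered 1 when either of low-yield replicates 1 and 2 was left out, and 2 when wildtype replicate 2 was.

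Since Gata1 and Klf1 act through short motifs near erythroid genes, the 250 bases before each RefSeq start (GRCm38.p6) were searched on both strands for a GATA motif (AGATAA) and for a box of the kind Klf1 binds (CCNCNCCC). Among 37 windows of the globin, heme and membrane genes called lower (29 of 34 genes matched), 6 held the first motif, 24 the second and 3 both. Over the promoters of all tested genes (10088 of 15024 matched), 6.17% held the first, 62.7% the second and 2.82% both; over all 32851 promoters of the table these shares were 9.99%, 45.9% and 2.78%. The windows with both are shown because they carry each motif beside a gene that fell, 5′ to 3′ on the gene's strand, with motif matches in capitals on either strand.
Hbb-bs (chr7:103827929-103828178, minus strand): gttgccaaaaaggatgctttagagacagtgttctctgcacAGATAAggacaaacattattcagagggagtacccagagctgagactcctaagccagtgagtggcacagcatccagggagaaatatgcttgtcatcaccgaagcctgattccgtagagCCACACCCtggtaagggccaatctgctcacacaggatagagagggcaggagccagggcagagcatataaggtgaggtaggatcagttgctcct
Icam4 (chr9:21029182-21029431, plus strand): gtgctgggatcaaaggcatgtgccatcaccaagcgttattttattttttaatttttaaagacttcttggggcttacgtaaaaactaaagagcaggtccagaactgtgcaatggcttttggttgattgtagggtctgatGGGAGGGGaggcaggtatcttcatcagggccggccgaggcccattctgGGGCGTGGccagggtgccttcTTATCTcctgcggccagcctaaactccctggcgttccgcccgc
Tmcc2 (chr1:132367949-132368198, minus strand): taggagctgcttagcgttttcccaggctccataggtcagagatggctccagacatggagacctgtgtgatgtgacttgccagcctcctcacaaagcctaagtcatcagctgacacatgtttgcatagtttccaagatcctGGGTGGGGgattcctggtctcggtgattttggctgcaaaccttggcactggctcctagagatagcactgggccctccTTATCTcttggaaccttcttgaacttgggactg
Such matches describe the letters only, since no binding was measured. Icam4, a red cell adhesion protein named here after its values were seen, stood at 102, 93.1 and 88.1 CPM in wildtype and 63.3, 47.7 and 70.4 CPM in low-yield libraries (-0.64, SE 0.14, adjusted p = 0.00857). Over all genes called lower (700 of 880 matched), 9.18% of 926 windows held the GATA motif and 63.9% the box; for genes called higher (773 of 1004 matched) the shares of 1023 windows were 6.16% and 67.1%.

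Many genes of red cell membrane proteins fell. Of 35 tested members, 19 fell and 1 rose, 32 had a negative log2 fold change and the median was -0.49. Over all tested genes 5.86% fell and 6.68% rose, so the share of rises is below the background. Sptb, beta spectrin of the membrane skeleton, was at 1437, 1585 and 1761 CPM in wildtype and 891, 892 and 1129.6 CPM in low-yield libraries (-0.72, SE 0.11, adjusted p = 0.000670). Epb42, which ties the skeleton to the anion exchanger, was at 99.8, 118 and 152 CPM and 49.2, 40.2 and 68.6 CPM (-1.22, SE 0.21, adjusted p = 0.00556). Tmcc2, whose promoter is among those printed, was at 70.3, 99.8 and 105 CPM and 35.1, 28.3 and 44.0 CPM (-1.35, SE 0.17, adjusted p = 0.000389). Groups did not overlap in these 3 genes, and low-yield replicate 3 was the highest low-yield library in each. Slc4a1, the anion exchanger itself, was at 331, 623 and 905 CPM and 108, 84.8 and 181 CPM (-2.31, SE 0.47, adjusted p = 0.0256) and was lost without low-yield replicate 1, low-yield replicate 2, wildtype replicate 2 or wildtype replicate 3 (adjusted p = 0.0669 to 0.113) and in a fit of the 6 compared libraries alone. The water channel Aqp1 (-1.37, SE 0.25, adjusted p = 0.0119) was lost without low-yield replicate 1 or wildtype replicate 3 (adjusted p = 0.0522 to 0.0555). The member that rose was Car1, a carbonic anhydrase named after its values were seen, from 27.7, 23.3 and 24.7 CPM to 36.9, 36.9 and 40.9 CPM (0.60, SE 0.10, adjusted p = 0.00145). Without low-yield replicate 1 the number of fallen members was 12.

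Among 23 tested erythroid transcription factors, 6 fell and Runx1 rose (median -0.09), where 5.86% and 6.68% of all tested genes did. Klf1, which drives adult beta globin, was at 839.7, 871 and 787 CPM in wildtype and 549.6, 491 and 591 CPM in low-yield libraries (-0.61, SE 0.08, adjusted p = 0.000358), whereas Gata1, chosen after its values were seen, was at 384, 365 and 347 CPM and 391.5, 377 and 377 CPM (0.06, SE 0.08, adjusted p = 0.657). Klf1 did not overlap between groups, and the Gata1 values did. E2f2, a cell cycle factor of late erythroblasts, fell (-0.90, SE 0.09, adjusted p = 5.29e-05), and so did Sox6 (-0.85, SE 0.22, adjusted p = 0.0322), which was lost without low-yield replicate 1, low-yield replicate 2, other-mutant replicate 2, wildtype replicate 2 or wildtype replicate 3 (adjusted p = 0.0575 to 0.117) and with no filter on low counts or in a fit of the 6 compared libraries alone. Runx1, a factor of blood stem cells and megakaryocytes, rose from 72.1, 79.1 and 70.2 CPM to 117, 133 and 119.8 CPM (0.74, SE 0.09, adjusted p = 0.000193). The count of fallen factors was 3 without low-yield replicate 1, low-yield replicate 2 or wildtype replicate 2, and that of risen ones 3 without wildtype replicate 1.

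Of 25 tested genes listed under mitophagy, autophagy and enucleation, 8 fell and 0 rose (median -0.19), where 5.86% of all tested genes fell. The list is broad, and a place on it does not show that a gene clears organelles. Cdc25b (-1.32, SE 0.19, adjusted p = 0.00132), Map1lc3a (-1.11, SE 0.23, adjusted p = 0.00607), Mkrn1 (-0.90, SE 0.11, adjusted p = 0.000152) and Tent5c (-0.74, SE 0.13, adjusted p = 0.00193) led this list. The count was 5 without low-yield replicate 1 or wildtype replicate 3. Of 24 tested genes of erythropoietin signalling, 4 fell and 1 rose (median 0.11), where 5.86% and 6.68% of all tested genes did. The receptor Epor was at 289, 306 and 284 CPM in wildtype and 203, 202 and 236 CPM in low-yield libraries (-0.45, SE 0.08, adjusted p = 0.00232). Erfe, the hormone by which erythroblasts lower hepcidin, also fell (-0.72, SE 0.15, adjusted p = 0.00480), and the kinase Lyn rose (0.61, SE 0.11, adjusted p = 0.00270). Without low-yield replicate 1, 2 genes of this list were called lower. The 1 rise became 5 when wildtype replicate 1 or low-yield replicate 3 was left out, 3 for other-mutant replicate 2 and 2 for other-mutant replicate 1.

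**Figure D3:**
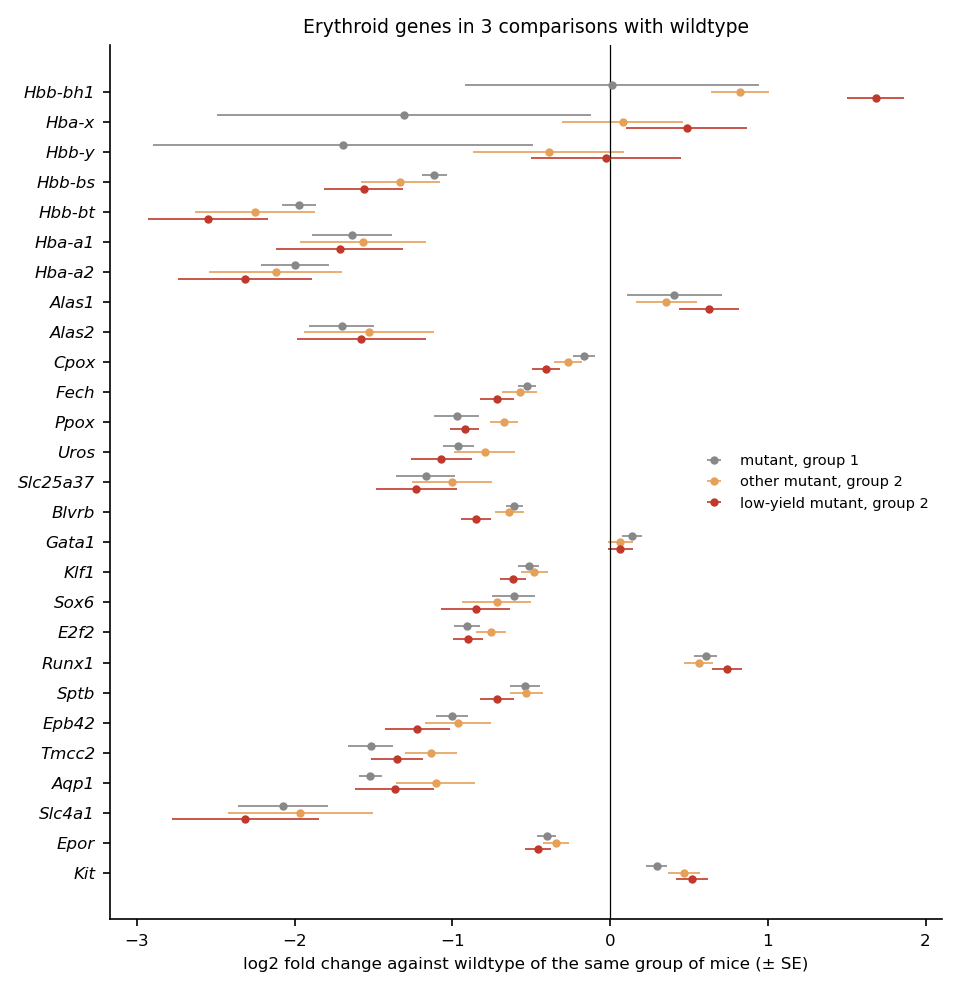
Log2 fold change (± SE) against wildtype of the same mice for 27 erythroid genes in the low-yield mutant of group 2 (red), the other mutant of group 2 (orange, same wildtype libraries) and the mutant of group 1 (grey, polyA RNA). Adult globin, heme and membrane genes lie below 0 in all 3 comparisons, apart from the heme gene Alas1, which rose in the low-yield mutant. Hbb-bh1 lies at 1.68, 0.83 and 0.01.

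Genes activated by p53 rose in part. Of 37 tested, 13 rose and 2 fell, 30 had a positive log2 fold change and the median was 0.34. Over all tested genes 6.68% rose and 5.86% fell, so the share of falls is near the background. Of the 37, 34 passed the filter at the wildtype level, and 10 of the 13 rises were among these. Cdkn1a, the cell cycle inhibitor p21, was at 2.72, 3.44 and 2.05 CPM in wildtype and 29.6, 18.4 and 20.2 CPM in low-yield libraries (3.07, SE 0.32, adjusted p = 0.000269). Zmat3, an RNA-binding target, was at 18.3, 17.4 and 17.6 CPM and 86.8, 73.1 and 68.1 CPM (2.10, SE 0.11, adjusted p = 8.83e-08). Neither gene overlapped, and the Zmat3 replicates lay close together in both groups. Ccng1, a cyclin that feeds back on Mdm2, was at 95.4, 108 and 116 CPM and 247, 237 and 207 CPM (1.11, SE 0.09, adjusted p = 1.36e-05), and Psrc1 at 21.3, 21.03 and 19.1 CPM and 66.1, 60.7 and 48.7 CPM (1.51, SE 0.14, adjusted p = 2.33e-05). Btg2, an antiproliferative target, fell (-1.19, SE 0.31, adjusted p = 0.0313) and was lost without low-yield replicate 1, low-yield replicate 2, other-mutant replicate 2, wildtype replicate 2 or wildtype replicate 3 (adjusted p = 0.0545 to 0.113) and with no filter on low counts. Trp53 itself, chosen after its values were seen, was at 304, 333 and 302 CPM and 354, 348 and 328 CPM (0.13, SE 0.08, adjusted p = 0.315). Without low-yield replicate 1, 8 of the targets were called higher. The 2 falls numbered 0 when low-yield replicate 1, low-yield replicate 2 or wildtype replicate 2 was left out, and 1 when wildtype replicate 3 or other-mutant replicate 2 was.

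Many regulators of stem and progenitor cells rose. Of 30 listed, 23 passed the filter on low counts, 16 of them at the wildtype level; 11 were called higher and 0 lower, 8 of those 11 among the 16, and of all tested genes 6.68% rose. Gata2, which precedes Gata1 in progenitors, was at 4.24, 1.88 and 2.52 CPM in wildtype and 10.8, 13.1 and 6.47 CPM in low-yield libraries (1.82, SE 0.29, adjusted p = 0.00107). Fli1, a factor that favours megakaryocytes over red cells, was at 2.28, 1.705 and 2.21 CPM and 9.85, 10.8 and 7.33 CPM (2.16, SE 0.25, adjusted p = 0.000103). Low-yield replicate 3 was the lowest of the low-yield libraries in both, still above all wildtype ones. Ikzf2 (2.37, SE 0.35, adjusted p = 0.000645) and the cytokine receptor subunit Csf2rb (1.83, SE 0.37, adjusted p = 0.00462) rose too, as did the stem cell factor receptor Kit (0.52, SE 0.10, adjusted p = 0.00382), chosen after its values were seen. The count of risen members was 7 without low-yield replicate 1 or 2.

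Of 25 listed megakaryocyte genes, 20 passed the filter, 14 of them at the wildtype level. Called higher were 10 (6.68% of all tested genes), 8 among the 14. Vwf, the von Willebrand factor, was called lower (5.86% of all tested genes). The Vwf call was lost without low-yield replicate 1, low-yield replicate 2, other-mutant replicate 1, other-mutant replicate 3, wildtype replicate 2 or wildtype replicate 3, and with library totals, with no filter on low counts, with a mean of at least 5 CPM required, in the 6 compared libraries alone or in edgeR's legacy mode. Itga2b, the platelet integrin CD41, chosen after its values were seen, was at 9.20, 9.82 and 8.62 CPM in wildtype and 34.0, 29.7 and 21.6 CPM in low-yield libraries (1.62, SE 0.16, adjusted p = 3.57e-05). Plek, a platelet kinase substrate, was at 0.696, 0.433 and 0.557 CPM and 3.04, 4.63 and 4.89 CPM (2.91, SE 0.47, adjusted p = 0.00104). In both the lowest low-yield library was over any wildtype one. Rab27b, of platelet granules, rose as well (2.03, SE 0.27, adjusted p = 0.000252). Thbs1, thrombospondin, was at 0.822, 1.91 and 2.09 CPM and 6.49, 9.04 and 13.5 CPM and lay at the threshold (2.56, SE 0.69, adjusted p = 0.04997), lost without low-yield replicate 1, low-yield replicate 2, low-yield replicate 3, other-mutant replicate 2, other-mutant replicate 3, wildtype replicate 1, wildtype replicate 2 or wildtype replicate 3 (adjusted p = 0.0517 to 0.142) and with the RLE size factors, with no filter on low counts, with a mean of at least 5 CPM required, in limma voom or in edgeR's legacy mode. Without wildtype replicate 2 the count of risen members was 6.

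Of 31 listed granulocyte, eosinophil and mast cell genes, 23 passed the filter, 17 of them only through libraries other than wildtype, so that a difference in these 17 was built into the filter. Prtn3, proteinase 3, was at 2.50, 0.809 and 0.846 CPM in wildtype and 13.6, 7.58 and 11.5 CPM in low-yield libraries (3.04, SE 0.45, adjusted p = 0.00164), and Hdc, which makes histamine, at 1.20, 0.318 and 0.601 CPM and 8.63, 5.48 and 4.07 CPM (3.11, SE 0.43, adjusted p = 0.000397). Both were chosen after their values were seen, and neither overlapped between groups. Over the whole list the summed level was 22.3 to 45.7 CPM in wildtype, 211 to 449 CPM in low-yield and 164 to 267 CPM in other mutant libraries, and Fcer1a, Gzmb and Prss34 were at 0 in all 6 compared libraries. In group 1 the sum, by replicate number, was 129, 1009 and 976 CPM in wildtype and 325, 1831 and 1307 CPM in mutant libraries. There 0 of the 23 tested members were called in edgeR, where 12.6% of all tested genes were, although the list median was 0.80. That fit did not pair the libraries by number, and the mutant sum was the higher at each number.

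Other cell types were checked in the same way, beside the 6.68% of all tested genes that rose and the 5.86% that fell. The 21 listed macrophage genes summed to 2.56 to 6.19 CPM in wildtype and 9.86 to 12.6 CPM in low-yield libraries; 8 passed the filter, Lyz2, which did not pass at the wildtype level, was called (2 genes when wildtype replicate 3, low-yield replicate 3 or other-mutant replicate 1 was left out), and Cd5l, Fcgr1, C1qc, Vsig4 and Timd4 were at 0. Hepatocyte genes summed to 14.5 to 104 CPM in wildtype and 61.7 to 67.8 CPM in low-yield libraries, with 0 of 17 tested called in edgeR, DESeq2 or limma voom and 0 at an unadjusted p below 0.05. Endothelial and stromal genes summed to 3.52 to 6.26 CPM and 11.4 to 18.1 CPM, and 3 of 7 tested were called higher, 1 of them among the 3 that passed the filter at the wildtype level. The called genes included Pecam1, which is also on progenitors and platelets (2.58, SE 0.33, adjusted p = 0.000233). That count was 1 without wildtype replicate 2, wildtype replicate 3 or low-yield replicate 2. Of 12 B lymphoid genes 1 passed the filter and was not called, and Pax5 was at 0. The sums of the granulocyte, macrophage and endothelial lists moved with the rise of progenitor and megakaryocyte genes and with the fall of erythroid genes, and their part in those results was not tested. In bulk RNA, fewer cells of a type and less RNA per cell cannot be told apart.

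**Figure D4:**
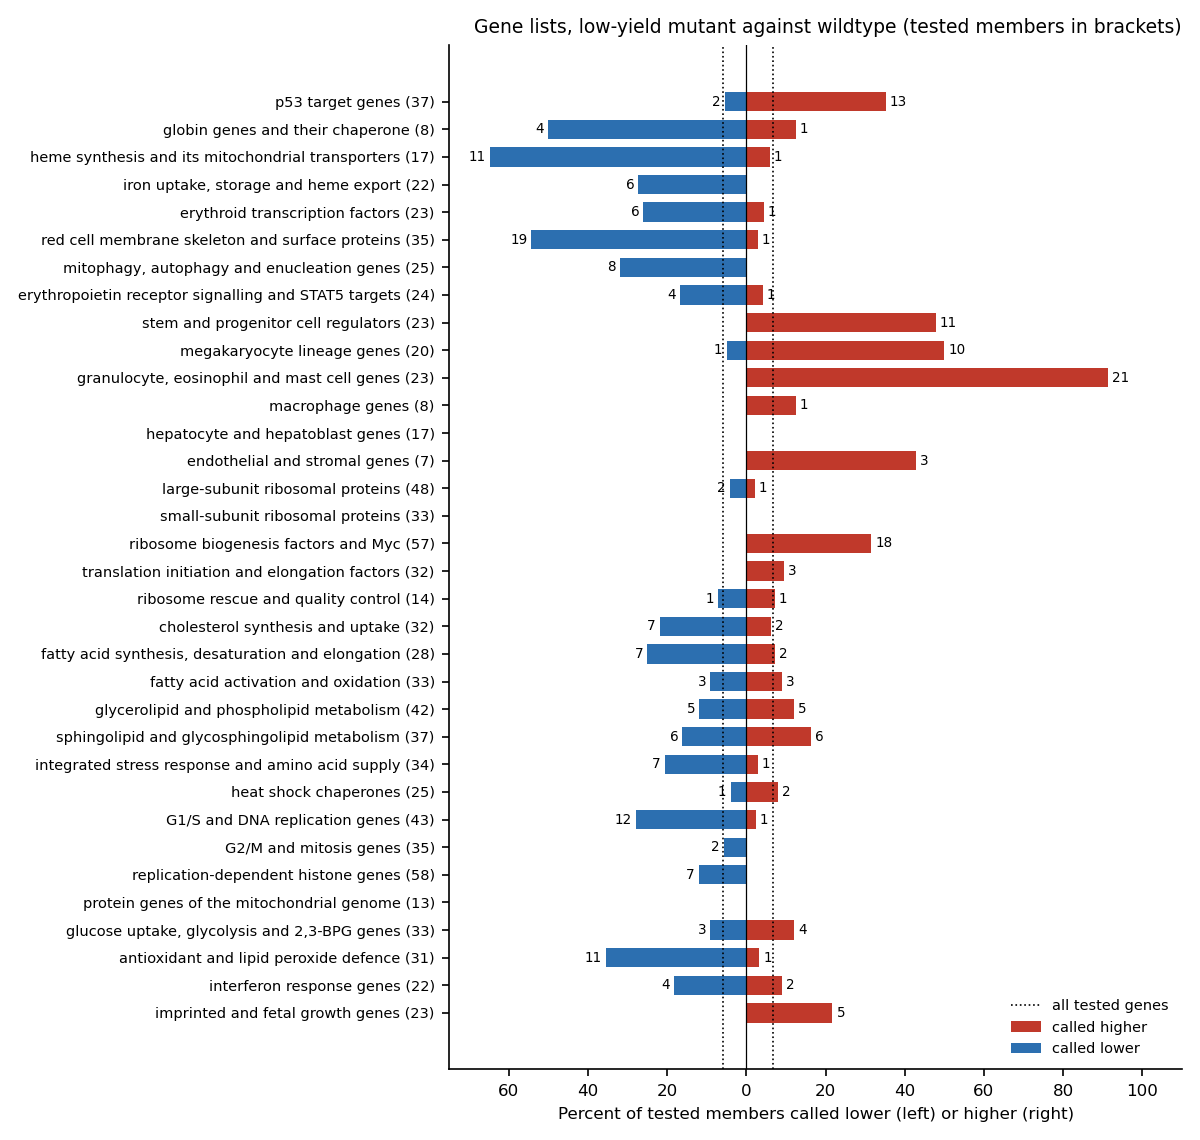
Percent of the tested members of 34 gene lists called lower (blue, left) or higher (red, right) in low-yield mutant against wildtype, with the number of called members beside each bar and the tested members in brackets; dotted lines mark the 5.86% and 6.68% of all tested genes. Most granulocyte genes passed the filter only through libraries other than wildtype, and the B lymphoid list, with 1 tested gene, is left out.

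Few ribosomal protein genes were called. Of 48 large-subunit genes, Rplp0 was called higher (0.54, SE 0.10, adjusted p = 0.00267) and Rpl22l1, a paralog of Rpl22, and Rpl5 lower, with a median of 0.05, where 6.68% of all tested genes rose and 5.86% fell. Of 33 small-subunit genes edgeR called 0, with 1 at an unadjusted p below 0.05; DESeq2 called 0 and limma voom 2 higher. Rpl22l1 was at 22.8, 16.9 and 19.96 CPM in wildtype and 10.1, 12.97 and 10.9 CPM in low-yield libraries (-0.81, SE 0.15, adjusted p = 0.00314), with no overlap. Without low-yield replicate 2, Rpl22l1 was the 1 large-subunit gene called lower, and 2 were called higher. Rplp0 has processed copies with near-identical stretches, and its sum with the 4 described in the closing section was 2849 ± 219.5 CPM in wildtype and 2973 ± 313 CPM in low-yield libraries (SD, n = 3), so the increase in the single gene is uncertain.

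Ribosome biogenesis factors rose in part. Of 57 tested, 54 had a positive log2 fold change, 18 rose and 0 fell, with a median of 0.27 and a background of 6.68% that rose. Utp20, of the small-subunit processome, was at 216, 236 and 234 CPM in wildtype and 339.6, 349 and 326 CPM in low-yield libraries (0.57, SE 0.07, adjusted p = 0.000259). Heatr1, a partner in the same complex, was at 288, 260.3 and 253 CPM and 388, 395 and 378 CPM (0.53, SE 0.08, adjusted p = 0.000609), and Wdr43 rose too (0.54, SE 0.09, adjusted p = 0.00192). Values did not overlap in these genes. Rises numbered 7 when either of low-yield replicates 1 and 2 was left out, and 36, 10 and 8 when wildtype replicates 1, 2 and 3 were left out in turn. Of 32 translation factors 3 rose and 0 fell, near the 6.68% and 5.86% of all tested genes. The rises were led by Eif4g2, from 1226, 1276 and 1356 CPM to 1827, 1908 and 1805 CPM (0.52, SE 0.08, adjusted p = 0.000815); 1 was called without low-yield replicate 1, low-yield replicate 2, wildtype replicate 2 or other-mutant replicate 3.

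Of 28 tested genes of fatty acid synthesis, desaturation and elongation, 7 fell and 2 rose (median -0.07). Over all tested genes 5.86% fell and 6.68% rose, so the share of rises is near the background. Scd1, the stearoyl-CoA desaturase that makes monounsaturated fatty acids (chromosome 19, 44394455 to 44407879), was at 30.4, 52.1 and 40.1 CPM in wildtype and 6.75, 6.18 and 7.76 CPM in low-yield libraries (-2.56, SE 0.22, adjusted p = 3.17e-05). Scd2, its isoform, was at 939.6, 1004 and 917 CPM and 547, 564 and 594 CPM (-0.75, SE 0.10, adjusted p = 0.000245), and Fads2, which desaturates polyunsaturated fatty acids, at 146, 178 and 181 CPM and 96.9, 101 and 109 CPM (-0.72, SE 0.09, adjusted p = 0.000248). The low-yield values of all 3 genes lay in a narrow band. Srebf1, the transcription factor of fatty acid synthesis, chosen after its values were seen, fell from 350.3, 331 and 301 CPM to 211, 204 and 207 CPM (-0.66, SE 0.08, adjusted p = 0.000233). Fasn, fatty acid synthase itself, was at 769.8, 743 and 619 CPM and 929, 866 and 812 CPM and did not pass (0.29, SE 0.10, adjusted p = 0.0789). It was not called in 12 of 18 alternatives. Fasn was called higher with library totals, with a mean of at least 5 CPM required, in limma voom, with the replicate block, and without wildtype replicate 1 or other-mutant replicate 2. The 2 increases of this list were 0 without wildtype replicate 2, wildtype replicate 3 or low-yield replicate 2, 1 without low-yield replicate 1 and 4 without low-yield replicate 3.

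Of 32 tested genes of cholesterol synthesis and uptake, 7 fell and 2 rose (median -0.17), against 5.86% and 6.68% of all tested genes; the share of rises is near that background. Insig1, the sterol sensor of the endoplasmic reticulum, was at 31.3, 22.2 and 24.5 CPM in wildtype and 13.9, 16.2 and 18.3 CPM in low-yield libraries, without overlap (-0.68, SE 0.14, adjusted p = 0.00632). The 7 falls were 2 without low-yield replicate 1 or 2 and 4 without wildtype replicate 2 or 3, and the 2 increases were 0 without any of low-yield replicates 1, 2 and 3 or wildtype replicates 2 and 3, and 1 without other-mutant replicate 1 or 3. In fatty acid activation and oxidation, 3 of 33 tested genes rose and 3 fell, near the 6.68% and 5.86% of all tested genes. Cpt1a, which admits fatty acids to mitochondria, rose from 46.6, 49.0 and 46.2 CPM to 80.001, 79.7 and 85.4 CPM (0.79, SE 0.09, adjusted p = 0.000103). Acsl6, an acyl-CoA synthetase, fell from 17.2, 16.2 and 13.2 CPM to 4.83, 4.29 and 7.67 CPM (-1.44, SE 0.22, adjusted p = 0.000805), and Acsl3 fell too (-0.60, SE 0.12, adjusted p = 0.00472). Cpt1a values were even within each group, and none of these genes overlapped. The 3 increases were 1 without wildtype replicate 3, low-yield replicate 2 or low-yield replicate 3.

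Sphingolipid genes moved both ways: of 37 tested, 6 rose and 6 fell (median 0.11; 6.68% and 5.86% of all tested genes), and 4 of the 6 rises were among the 33 genes that passed the filter at the wildtype level. Spns2, which exports sphingosine-1-phosphate, was at 77.4, 70.0 and 59.4 CPM in wildtype and 178, 183 and 142 CPM in low-yield libraries (1.28, SE 0.11, adjusted p = 1.36e-05). Sphk1, the kinase that makes that lipid, was at 142, 116 and 111 CPM and 59.4, 51.8 and 78.1 CPM (-0.96, SE 0.14, adjusted p = 0.000816). No library overlapped in either, and the exporter was higher and the kinase lower in 3 of 3 low-yield libraries. The falls were 1 without low-yield replicate 1 or 2 and 2 without wildtype replicate 2, and the increases 3 without wildtype replicate 3. Of 42 tested genes of glycerolipid metabolism 5 rose, 4 of them among the 41 that passed at the wildtype level, and 5 fell (median -0.00061), where 6.68% and 5.86% of all tested genes did. Agpat2, which makes phosphatidic acid, rose (0.76, SE 0.15, adjusted p = 0.00413) and Lpcat1, which remodels phosphatidylcholine, fell (-0.45, SE 0.08, adjusted p = 0.00208). The rises of that list became 1 and 3 when low-yield replicates 1 and 2 were left out in turn, and 2 and 3 for wildtype replicates 2 and 3, and its falls 1 without low-yield replicate 1, low-yield replicate 2 or wildtype replicate 3 and 2 without wildtype replicate 2.

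Where antioxidant and stress genes changed, most fell. Of 31 tested antioxidant genes 11 fell and 1 rose (median -0.15), and 5.86% and 6.68% of all tested genes did. Gsta4, a glutathione transferase for lipid peroxidation products, was at 14.9, 10.5 and 12.9 CPM in wildtype and 5.85, 5.87 and 7.76 CPM in low-yield libraries, without overlap (-0.96, SE 0.18, adjusted p = 0.00282). Nqo1, a quinone reductase, fell (-1.05, SE 0.23, adjusted p = 0.00823) but was lost without low-yield replicate 1 (adjusted p = 0.0534). The falls numbered 5 and 7 when low-yield replicates 1 and 2 were left out in turn, and the 1 rise was lost when low-yield replicate 1 or wildtype replicate 3 was. Of 34 tested genes of the integrated stress response, which Atf4 drives, 7 fell and 1 rose (median -0.09), set beside the same 5.86% and 6.68%. Chac1, a glutathione-degrading Atf4 target chosen after its values were seen, was at 0.696, 3.18 and 2.85 CPM and 0.0320, 0.0913 and 0.168 CPM (-4.43, SE 0.69, adjusted p = 0.000533); no low-yield value reached the lowest wildtype one. Cars (-0.40, SE 0.08, adjusted p = 0.00385) and Ppp1r15b (-0.38, SE 0.07, adjusted p = 0.00300) fell by less. The falls were 4 without low-yield replicate 1, low-yield replicate 2 or wildtype replicate 2, and the 1 rise was lost when wildtype replicate 2, wildtype replicate 3 or any low-yield library was left out.

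Of 22 tested interferon response genes 4 fell and 2 rose, 1 of these among the 17 that passed the filter at the wildtype level, where 5.86% of all tested genes fell and 6.68% rose. The immunity-related GTPases Irgm2, at 3.38, 6.64 and 11.6 CPM in wildtype and 1.44, 1.43 and 1.58 CPM in low-yield libraries (-2.31, SE 0.40, adjusted p = 0.00199), and Igtp (-1.18, SE 0.22, adjusted p = 0.00241) were among those that fell. Irgm2 was even across low-yield libraries and spread over wildtype ones. The falls were 2 without low-yield replicate 2, and the 2 increases became 0 when low-yield replicate 1 was left out, 4 for wildtype replicate 1, and 1 for any of wildtype replicates 2 and 3, low-yield replicate 3 or the 3 other-mutant libraries.

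G1/S genes fell in part, 12 of 43 tested, and Ccnd2 rose (median -0.14), where 5.86% and 6.68% of all tested genes did. Ccnd2, a D cyclin, was at 121, 119 and 89.2 CPM in wildtype and 213, 201 and 167 CPM in low-yield libraries (0.82, SE 0.13, adjusted p = 0.00153). Ccne1, the cyclin of S phase entry, was at 209, 229 and 229 CPM and 148, 123 and 172 CPM (-0.58, SE 0.11, adjusted p = 0.00268), and the inhibitor Cdkn2c at 24.2, 27.97 and 32.3 CPM and 17.4, 16.2 and 17.6 CPM (-0.73, SE 0.13, adjusted p = 0.00190). The groups were apart in all 3. When low-yield replicate 2 was left out 6 genes of the list fell, and 2 rose when wildtype replicate 1, low-yield replicate 3 or other-mutant replicate 2 was. Of 35 G2/M genes 2 fell, near the 5.86% of all tested genes, and 0 rose. The falls were 1 without low-yield replicate 1, low-yield replicate 2 or wildtype replicate 2, against 4 without wildtype replicate 1 or low-yield replicate 3, and 1 gene rose when other-mutant replicate 2 was left out. Of 23 tested genes of fetal growth 5 rose and 0 fell (median 0.34), where 6.68% and 5.86% of all tested genes did. Hmga2, a chromatin protein of fetal stem cells, was at 8.10, 6.93 and 5.32 CPM and 31.0, 36.8 and 23.0 CPM (2.17, SE 0.19, adjusted p = 1.36e-05), and the imprinted gene Peg10 at 31.6, 22.6 and 27.0 CPM and 82.1, 92.5 and 64.6 CPM (1.56, SE 0.14, adjusted p = 2.33e-05). Igf2bp3 (0.60, SE 0.12, adjusted p = 0.00572) and Grb10 (0.54, SE 0.08, adjusted p = 0.000462) rose by less. No low-yield library was at wildtype level for these genes.

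In glycolysis, 4 of 33 tested genes rose and 3 fell, where 6.68% and 5.86% of all tested genes did. Pklr, the pyruvate kinase of red cells, fell from 721, 709 and 705 CPM to 439, 439 and 510.5 CPM (-0.62, SE 0.08, adjusted p = 0.000231). Pkm, the form of other tissues, was at 843, 589 and 477 CPM in wildtype and 1051, 1078 and 1006 CPM in low-yield libraries (0.72, SE 0.19, adjusted p = 0.0381); wildtype replicate 1 was nearest to the low-yield values. The Pkm call was lost without low-yield replicate 1, low-yield replicate 2, low-yield replicate 3, other-mutant replicate 1 or wildtype replicate 2 (adjusted p = 0.0527 to 0.125) and with no filter on low counts or in a fit of the 6 compared libraries alone. The 4 increases became 10, 0 and 2 when wildtype replicates 1, 2 and 3 were left out in turn, and 1, 0 and 2 for the low-yield ones.

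Replication-dependent histone genes, whose messages lack a polyA tail, were lower in 2 of the 3 low-yield libraries. All 58 tested had a negative log2 fold change (median -0.57), and 7 were called lower, where 5.86% of all tested genes were. The median over the histone genes of each library, relative to the wildtype mean on the log2 scale, was -0.71, -1.10 and -0.11 in the low-yield libraries, 0.10, -0.0059 and -0.12 in wildtype and -0.26, -0.51 and -0.13 in the other mutant. Low-yield replicate 3 thus lay within the wildtype range. H4c11, coding for histone H4, was at 79.9, 81.0 and 77.8 CPM in wildtype and 40.1, 34.6 and 60.6 CPM in low-yield libraries (-0.81, SE 0.16, adjusted p = 0.00518). When low-yield replicates 1, 2 and 3 were left out in turn, 2, 2 and 49 were called lower. The same omission of wildtype replicates gave 2, 4 and 3, and that of other-mutant replicates 4, 4 and 3. Summed over the list, the level was 30687 to 36369 CPM in wildtype and 15752 to 30810 CPM in low-yield libraries, and 128 to 218 CPM in the polyA RNA of group 1.

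The short RNAs Rpph1, Scarna10 and Rn7sk were chosen after their values were seen, and how other short RNAs behaved was not tallied. Rpph1, the RNA of RNase P (chromosome 14, 50807449 to 50807767), was at 2994, 3359.8 and 3874 CPM in wildtype, 947, 938 and 1464 CPM in low-yield and 2734, 2938 and 2092 CPM in other mutant libraries (-1.61, SE 0.20, adjusted p = 0.00144 against wildtype). Scarna10, a guide RNA of Cajal bodies, was at 9.93, 9.77 and 9.85 CPM, 2.14, 1.89 and 4.12 CPM and 7.42, 8.03 and 5.45 CPM in the same order (-1.81, SE 0.25, adjusted p = 0.000397). The low-yield libraries were below all libraries of both other groups in these 2 genes. Rn7sk, which restrains transcription elongation, fell (-1.07, SE 0.21, adjusted p = 0.0125) and was lost without low-yield replicate 1 or wildtype replicate 1 (adjusted p = 0.0518 to 0.0578) and with no filter on low counts. How far the recovery of short RNAs differed between libraries was not measured, and its part in these values was not tested.

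**Figure D5:**
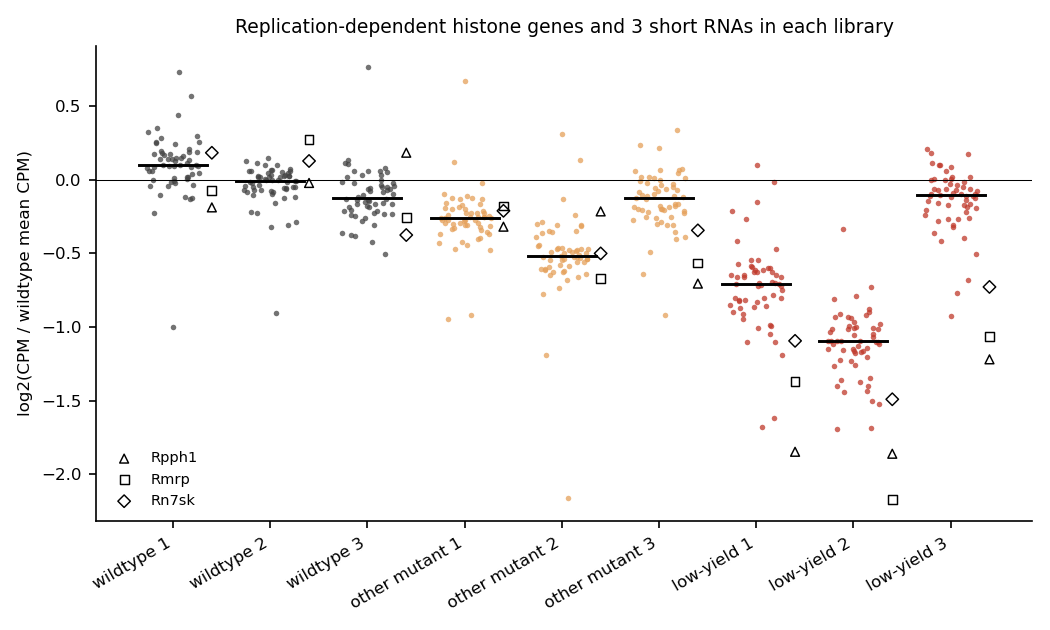
Level relative to the wildtype mean (log2 of CPM over wildtype mean CPM) of 58 replication-dependent histone genes (points, bar at the median) and of Rpph1, Rmrp and Rn7sk (open symbols) in each of the 9 libraries of group 2. Histone medians are -0.71 and -1.10 in low-yield replicates 1 and 2 and -0.11 in replicate 3, whereas the 3 short RNAs are below all wildtype and other mutant libraries in each low-yield library.

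Whether the low-yield libraries differed from the other mutant ones was tested directly in the fit of all 9 libraries. Of 15024 genes, 0 (0%) were called, 480 had an unadjusted p below 0.05 and the smallest adjusted p was 0.819 in edgeR. DESeq2 called 6 genes and limma voom 4, and edgeR 22 without low-yield replicate 3. Hbb-bh1, among the 6 of DESeq2, was at 58.5, 52.6 and 79.1 CPM in low-yield and 28.3, 41.9 and 35.2 CPM in other mutant libraries (log2 fold change 0.86, SE 0.18). Itga2b, called by both, was at 34.0, 29.7 and 21.6 CPM and 16.9, 15.4 and 14.7 CPM (0.86, SE 0.15), and Scd1 at 6.75, 6.18 and 7.76 CPM and 18.1, 14.5 and 10.9 CPM (-1.05, SE 0.23). In each of these genes the low-yield values did not overlap the other mutant ones. Lrrc75aos2, Rpph1 and Scarna10 completed the 6, and Lrrc75aos2, Sirpa and Spns2 the 4; the 22 were mostly histone genes and short RNAs. All of these were named for having been called.

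Both mutant groups were set against the same 3 wildtype libraries, so their fold changes are not independent. Side by side, the log2 fold changes against wildtype of the low-yield and the other mutant were -2.56 and -1.51 for Scd1, 3.35 and 2.46 for Vim, and 1.28 and 0.80 for Spns2. Cdkn1a (3.07 and 3.82), Zmat3 (2.10 and 2.48) and Ccng1 (1.11 and 1.44) had the larger value in the other mutant. Of these genes 0 were called between both mutant groups in edgeR with all 9 libraries. Scd1 was called there in DESeq2, Spns2 in limma voom, and Spns2 and Vim in edgeR without low-yield replicate 3.

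The mutant of group 1 shares no library with these, though its RNA was polyA selected. Of 14048 genes tested there, 1766 (12.6%) were called, 814 higher (5.79%) and 952 lower (6.78%). Of the 1004 genes that rose in the low-yield mutant, 993 were tested in group 1, 980 had the same sign there and 480 were called in the same direction, which is 47.8% of the low-yield list and 59.0% of the 814 called higher in group 1. Of the 880 that fell, 869 were tested, 853 had the same sign and 506 were called, 57.5% and 53.2% of the respective lists. In the opposite direction, 0 genes were called. Among the 11508 genes tested in both and not called in the low-yield mutant, 72.5% had the same sign. The shared calls, 986 in all, numbered 569 and 564 with low-yield replicates 1 and 2 left out in turn, and 565 and 609 with mutant replicate 3 and wildtype replicate 2 of group 1 left out.

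Erythroid, p53 and desaturase genes were among the shared ones. Log2 fold changes in group 1 were -1.12 for Hbb-bs (adjusted p = 1.12e-05), -1.83 for Scd1 (8.12e-05), 3.80 for Cdkn1a (2.51e-06) and 0.94 for Spns2 (9.21e-05). Genes called in the low-yield mutant but not in group 1, whose fit did not pair libraries by number, included Hbb-bh1 (0.01, adjusted p = 0.995), Mpo (1.34, 0.492), Gata2 (1.55, 0.258) and Vim (1.66, 0.203). The difference between the 2 effects, tested as an interaction over 12 libraries, was called for 4 of 16051 genes (0.0249%), none of which is named in this paragraph, and had an unadjusted p below 0.05 for 625. DESeq2 called 16 genes in that test, and edgeR 26 with the replicate number as a block, Lyz2, Ngp, Camp, Ncf1 and Prtn3 among them.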

How the data were processed

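The members and gene lists were chosen with earlier results of these data known. The authors deposited expected counts for each gene, unnormalised and already whole numbers. Per the submitters' processing notes, cutadapt 2.3, FastQC 0.11.8, STAR 2.7.8a, RSEM 1.3.3, MultiQC 1.7 and the build GRCm38 were used. Neither annotation release nor strand setting is given in the sources used here, and near-identical copies may share reads. Of 55487 listed genes 99.5% matched GENCODE M21, which gave names and positions. The 5 reporter rows of the table of group 2, which held 1 count in all, were left out.

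Genes of the 9 libraries of group 2 were filtered with filterByExpr (minimum count 10, total 15), scaled by TMM and fitted by edgeR 4.0.16 in R 4.3.3 with a robust quasi-likelihood model and no covariate. Tests were two-sided, with Benjamini-Hochberg adjustment over all tested genes and a threshold of 0.05. The SE is the log2 fold change divided by the root of F. The other mutant libraries enter the filter, the scaling and the shared dispersion. Group 1 (6 libraries) was fitted separately, and the interaction over 12 libraries. The common biological coefficient of variation was 19.9%, and replicates had a chi-square per degree of freedom of 34.7 to 76.5, so no library repeated another. A count of 3, the limit that 0 allows for counting error only, is 0.0668 to 0.0959 CPM. Alternatives were RLE factors, library totals, no filter, a mean of at least 5 CPM, DESeq2 1.42.0, limma 3.58.1 (voom with quality weights), the 6 compared libraries alone, a replicate block, each library left out and, added after the data were seen, edgeR's legacy mode. On simulated counts the fit was checked for known changes.

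Named genes are Rpl5, the 15 largest increases and 15 largest decreases among called genes with a mean of at least 2 CPM, no overlap between groups and no predicted gene or pseudogene, and, per list, up to 4 called members with the largest change (mean of at least 2 CPM) and the member with the highest mean. Others are said to have been chosen after their values were seen, or are named where 5 or fewer genes were counted or a marker was at 0.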

Additional observations from a re-analysis of the deposited data

Results flagged for a closer look

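For 4 genes the effect of the low-yield mutant in group 2 differed from that of the mutant in group 1 by a test of the difference itself (edgeR, adjusted over 16051 genes). All 4 are annotated as processed pseudogenes, share between 53.2% (Gm14165) and 74.9% (Gm8730) of their 21-base words with the transcripts of Rplp0, and may exchange reads with it. The difference on the log2 scale was -1.19 for Gm8730, -1.05 for Gm14165, -1.26 for Gm9625 and -1.27 for Gm6278. Gm8730 stood at 1151, 948 and 924 CPM in wildtype and 518, 432 and 552 CPM in low-yield libraries of group 2 (-1.01, SE 0.11, adjusted p = 0.000133), with a log2 fold change of 0.16 (adjusted p = 0.163) in group 1. The other 3 fell in group 2, with log2 fold changes of -1.03 to -0.94, and had values of 0.08 to 0.21 in group 1. In the other mutant of group 2 the log2 fold changes of the 4 were -0.97, -0.89, -0.97 and -0.91. Summed with Rplp0, they were at 2849 ± 219.5 CPM in wildtype and 2973 ± 313 CPM in low-yield libraries (SD, n = 3). The call of Gm14165 was lost when any of 10 of the 12 libraries was left out. The kind of RNA also differs between the groups of mice, and its part in the result was not tested.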

How the results depend on the processing

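With limma voom and quality weights, 3399 genes were called (1744 higher, 1655 lower), and 1497 were shared with group 1. With RLE factors, library totals, no filter, a mean of at least 5 CPM, DESeq2, the 6 compared libraries alone or the legacy mode, between 1596 and 2304 were called; the cause of the differences was not tested. Library totals gave 1276 higher and 686 lower, against 1004 and 880, with the median of all genes at 0.037. Leaving out 1 library gave 900 to 2395 calls, 515 to 1332 higher, 382 to 1063 lower, and 564 to 1094 shared with group 1. In no alternative was a called gene called in the opposite direction. Low-yield against other mutant gave 6 calls in DESeq2, 4 in limma voom and 0 to 22 with 1 library left out. The interaction gave 16 calls in DESeq2 and 3 to 8 with 1 library left out; a fit of the compared libraries alone was not applicable to it.

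The replicate numbers did not pair the libraries of group 2: deviations of same-numbered wildtype and low-yield libraries correlated at 0.08, -0.07 and 0.02, and not every library correlated best with its own number. Group 1 was not checked in this way. Its granulocyte sums, by replicate number, were 129, 1009 and 976 CPM in wildtype and 325, 1831 and 1307 CPM in mutant libraries. Whether its libraries are paired was not tested. With the replicate block, 2331 genes were called (1219 higher, 1112 lower), 1558 shared with group 1, 26 in the interaction and 0 between both mutant groups. Rmrp, Rn7sk and H4c8 were not called in that fit. Rmrp was also lost when any wildtype library or low-yield replicate 1 was left out, and H4c8 in 9 other alternatives.

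Among gene lists with at least 3 calls in a direction, counts moved by over 1.5 times as follows. With limma voom the falls were 10 against 6 in iron handling, 28 against 7 in histones, 11 against 7 in the integrated stress response, 9 against 5 in glycerolipid metabolism, 5 against 3 in fatty acid oxidation and 6 against 3 in glycolysis, and the rises 41 against 18 in ribosome biogenesis, 11 against 6 in sphingolipid metabolism, 10 against 4 in glycolysis, 8 against 5 in fetal growth and 5 against 3 in translation. DESeq2 gave 20 falls in histones and 7 rises in glycolysis. A mean of at least 5 CPM gave rises of 5 against 11 in progenitor, 4 against 10 in megakaryocyte, 4 against 21 in granulocyte (13 without wildtype replicate 2), 3 against 5 in glycerolipid and 0 against 3 in endothelial genes, and 1 against 4 interferon falls. Members below that mean were no longer tested, so these lower counts include genes left out and not only calls that were lost. Library totals gave 30 rises in ribosome biogenesis, and the block 31, with 15 falls in histones. No filter left 2 histone falls, the compared libraries alone 3 histone falls, 2 globin falls and 2 glycolysis rises, and the legacy mode 1 endothelial rise. Smaller counts moved by at most 5 genes.

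Of the values for single genes and lists under the alternatives, 0 reversed, 278 lost and 34 gained a call. Genes below the filter, about 0.303 CPM, were not tested, so changes in them were not detectable at this depth.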

Other observations

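Chaperones, ribosome rescue genes and the region around Rpl5 were also examined. Of 25 tested heat shock chaperones 2 rose and 1 fell, near the 6.68% and 5.86% of all tested genes. The fall was lost when low-yield replicate 1, low-yield replicate 2, wildtype replicate 2 or wildtype replicate 3 was left out, and 3 fell without wildtype replicate 1 and 2 without low-yield replicate 3. The mitochondrial chaperonin Hspd1 was at 1287, 1129 and 1227 CPM in wildtype and 1541, 1659.9 and 1534 CPM in low-yield libraries (0.38, SE 0.08, adjusted p = 0.00658 in edgeR), without overlap, and its call was lost without low-yield replicate 2 (adjusted p = 0.0511). Hspa9, its partner in protein import, rose as well (0.37, SE 0.09, adjusted p = 0.0125) and was lost without low-yield replicate 1, low-yield replicate 2, wildtype replicate 2 or wildtype replicate 3 (adjusted p = 0.0502 to 0.0804). The cytosolic chaperone Hsp90ab1 was at 3666, 3623 and 3748 CPM and 4288, 4362 and 3988 CPM and did not pass (0.20, SE 0.08, adjusted p = 0.117). Of the 13 protein genes of the mitochondrial genome, 0 were called in edgeR, DESeq2 or limma voom and 0 had an unadjusted p below 0.05 in edgeR (median log2 fold change 0.19). When low-yield replicate 3 was left out, edgeR called 1 of the 13 higher. Of 14 tested genes of ribosome rescue 1 rose and 1 fell, likewise near those shares. That rise was lost when any low-yield library, wildtype replicate 2, wildtype replicate 3 or other-mutant replicate 3 was left out, and the fall when wildtype replicate 3 or low-yield replicate 1 was; without wildtype replicate 1, 2 fell.

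Within 10 Mb of Rpl5, 24 of 189 tested genes (12.7%) were called in either direction. Over all 15024 tested genes 6.68% rose and 5.86% fell, 1884 genes in either direction. On chromosome 5 the share called in either direction was 11.6% (120 of 1037). The region was thus near the background.

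Elsewhere in the genome, Naprt (chromosome 15), which makes NAD from nicotinic acid and was chosen after its values were seen, was at 3.16, 3.50 and 3.79 CPM in wildtype, 1.18, 0.609 and 1.39 CPM in low-yield and 1.55, 2.36 and 1.91 CPM in other mutant libraries of group 2 (-1.69, SE 0.32, adjusted p = 0.00300 against wildtype). Its log2 fold change in group 1 was -0.29 (adjusted p = 0.612), and the difference between the 2 effects was not called.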
